A study of Homo sapiens with 6 samples.

Results

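The proteasome genes followed here are those whose symbol begins with PSMA to PSMG and a number, without the interferon-inducible subunits PSMB8, PSMB9 and PSMB10, the activator genes PSME1 and PSME2, antisense names and pseudogenes. Transcripts were quantified in TPM, a measure of relative transcript abundance, which corrects for length and scales each library to the same total. A gene was kept where it reached 1 TPM in at least 2 of 6 libraries. Of 54 symbols in the tables that begin this way, 42 were kept, out of 14195 genes tested and 26485 symbols in all. The other 12 were the 5 inducible genes, 5 antisense names (PSMA3-AS1, PSMB8-AS1, PSMD5-AS1, PSMD6-AS2 and PSMG3-AS1) and 2 genes under the filter. These 2 are tissue-restricted variants: PSMA8, a testis subunit, was listed at 0 in all 6 libraries, and PSMB11, a thymus subunit, at 0 to 0.0316 TPM.

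The libraries come from PC9-BrM4, PC9-AMG and PC9, human lung cancer cells grown in conventional culture, with 2 libraries per line and no treatment named in the labels. PC9 was established from a lung adenocarcinoma and carries mutant EGFR, and the names of the other lines mark them as its sublines. The labels leave undescribed how the sublines were derived and what AMG means. Each line is a single cell line, and the labels do not say that its 2 libraries came from separate cultures, so each p-value reflects the variation among these libraries alone, which may be technical.

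The proteasome is the large protease that degrades ubiquitin-tagged proteins in the cytosol and nucleus. Its 20S core is a barrel of alpha and beta rings, with the proteolytic sites inside on beta subunits. The 19S regulatory particle caps the barrel, binds and removes the ubiquitin chains, and unfolds the substrate with a ring of ATPases. Dedicated chaperones guide assembly, and the transcription factor NFE2L1 is known to raise the genes of both particles together when proteolysis falls short.

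The libraries held 2.66 to 4.39 aligned gigabases each, and 13455 to 13764 genes reached 1 TPM. The keratins and adhesion proteins that mark the epithelial origin of the line summed to 9415 and 9542 TPM in PC9-BrM4, 13966 and 14461 TPM in PC9-AMG and 12161 and 12246 TPM in PC9. The 6 leukocyte markers summed to 42.2 to 50.1 TPM over the libraries, with at least 4 of 6 below 1 TPM in each line. The 7 fibroblast and endothelial markers summed to 5.99 to 6.67 TPM in PC9-BrM4 and 20.3 to 20.7 TPM in PC9-AMG, against 8.94 to 9.54 TPM in PC9, with 4 of 7 below 1 TPM in each line. Among these markers COL1A1 (1.40 ± 0.10, limma adjusted p = 3.84e-05), ITGAM (1.78 ± 0.13, limma adjusted p = 4.76e-05) and CDH5 (0.53 ± 0.13, limma adjusted p = 0.0091) were higher in PC9-AMG than in PC9. CD68, which made up most of the leukocyte sum, was lower (-0.29 ± 0.05, limma adjusted p = 0.00168). PECAM1 did not pass (-0.26 ± 0.11, limma adjusted p = 0.071). In PC9-BrM4 over PC9, CD68 (-0.25 ± 0.05), PECAM1 (-0.54 ± 0.11) and CDH5 (-0.52 ± 0.13) passed as lower, and COL1A1 and ITGAM did not pass. Of the epithelial markers, KRT7, KRT8, KRT18 and KRT19 were lower and CDH1 higher in PC9-BrM4. In PC9-AMG, KRT7, KRT8, KRT18 and CDH1 were higher and KRT19 lower. EPCAM passed over PC9 in neither subline. The part of these markers in the proteasome values was not tested. Changes are given as log2 fold changes of TPM + 1 with their standard error (SE), from a limma model of all 6 libraries. A gene is said to have risen or fallen where the Benjamini-Hochberg adjusted p over all tested genes was under 0.05.

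The 42 genes fall into 7 alpha subunits, 7 beta subunits, 6 ATPases and 11 other subunits of the regulatory particle, 7 assembly chaperones, 3 genes for other activators or an inhibitor, and PSMC3IP. PSMC3IP matches by its symbol alone, since its product is a meiotic recombination factor and no proteasome subunit. It was the lowest of the 42, at 12.4 and 9.79 TPM in PC9-BrM4 and 10.8 and 10.4 TPM in PC9-AMG, against 13.1 and 12.7 TPM in PC9, and passed in no comparison. PSMD2, which builds the platform of the regulatory particle for shuttle factors, was the most abundant, with a mean of 1055 TPM over the 6 libraries.

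Subunits that stand in equal number in the assembled particle differed widely in transcript level. Within the alpha ring the mean over 6 libraries ran between 134 TPM for PSMA5 and 744 TPM for PSMA7, a ratio of 5.54. In the beta ring it ran between 249.6 TPM for PSMB5 and 727 TPM for PSMB7, a ratio of 2.91. The ATPases ranged between 80.8 TPM for PSMC1 and 416 TPM for PSMC3, and the other regulatory subunits between 159.8 TPM for PSMD11 and 1055 TPM for PSMD2. The chaperones were lower, between 39.1 TPM for PSMG4 and 176 TPM for PSMD10, as were the 3 activator and inhibitor genes, between 68.3 TPM for PSMF1 and 110.1 TPM for PSME3. The plot of levels by library shows how near the 6 values of a gene lie beside this spread.

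**Figure D1:**
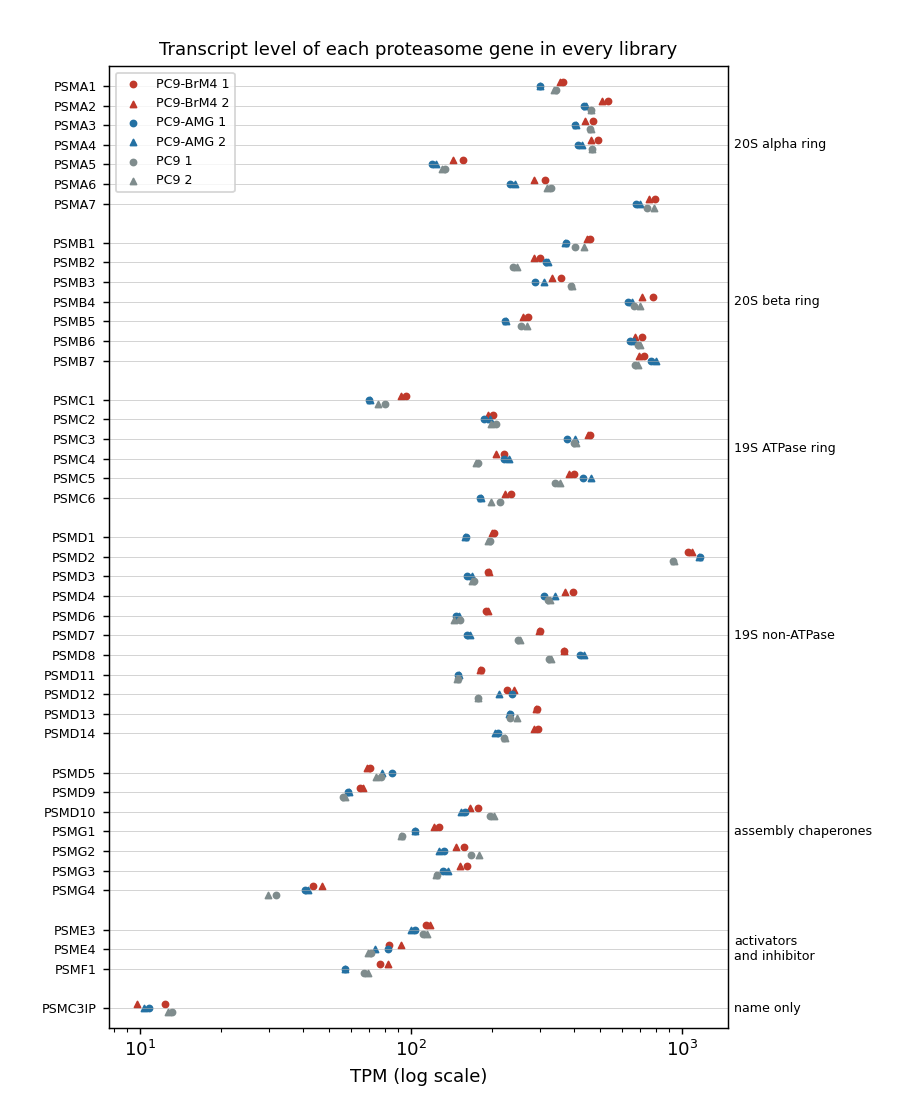
Transcript level of each of the 42 genes in every library, on a log axis in TPM, grouped by role; circles are replicate 1 and triangles replicate 2 of PC9-BrM4 (red), PC9-AMG (blue) and PC9 (grey). The 6 values of a gene lie close together beside the spread between genes, with PSMD2 at the right and PSMC3IP at the left.

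Some of these values are uncertain. Genes on the opposite strand overlap PSMA3, PSMB7, PSMC2, PSMC3IP, PSMC5, PSMD1, PSMD6 and PSMG2, and the labels do not say whether counting used the strand, so their reads cannot be told apart without it. The partners of PSMC2 and PSMD1 were listed at 0. Pseudogenes named after PSMC1 (13 of them), PSMA6 (4), PSMA2 (3), PSMD10 (3) and, with 1 each, PSMA3, PSMB3, PSMB7, PSMD4, PSMD7, PSMD8 and PSMD12 are annotated in GENCODE 29. These pseudogenes were not analysed here, and reads they share with the parent gene would make its value uncertain.

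PC9-BrM4 against PC9 asks which proteasome genes set this subline apart from the parental line. Transcripts of the regulatory particle genes kept here were higher in PC9-BrM4 almost throughout, while those of the core stayed close to PC9. Of 17 regulatory particle genes 15 rose and 0 fell in the limma fit, with a median log2 fold change of 0.24. The 17 leave out the subunits SEM1 and ADRM1, whose symbols do not match. SEM1 fell (-0.54 ± 0.05, limma adjusted p = 0.000102) and ADRM1 rose (0.44 ± 0.04, limma adjusted p = 0.000123). Of 14 core genes 3 rose and 1 fell, with a median of 0.05. Over all 42 genes 24 rose (57.1%) and 3 fell (7.1%), against 23.4% higher and 23.1% lower (46.6% either way) among all genes tested.

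The changes were small. The median log2 fold change of the 42 genes was 0.17, against -0.0016 over all genes tested, and the range was -0.22 to 0.54. Both PC9-BrM4 libraries lay above both PC9 libraries for 29 genes and below both for 6, where 75.2% of all genes tested had libraries that did not overlap in either direction. PC9-BrM4 replicate 1 was above replicate 2 for 33 of 42 genes, with a median absolute log2 difference of 0.07 between replicates. With each of the 6 libraries left out in turn, 11 to 15 regulatory particle genes rose and 0 fell. The count was 11 without either PC9 library or without PC9-BrM4 replicate 1. The regulatory particle genes had 0 falls at an unadjusted p under 0.05 as well. A difference in RNA per cell cannot be told apart from a difference in relative transcript share in these bulk libraries.

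**Figure D2:**
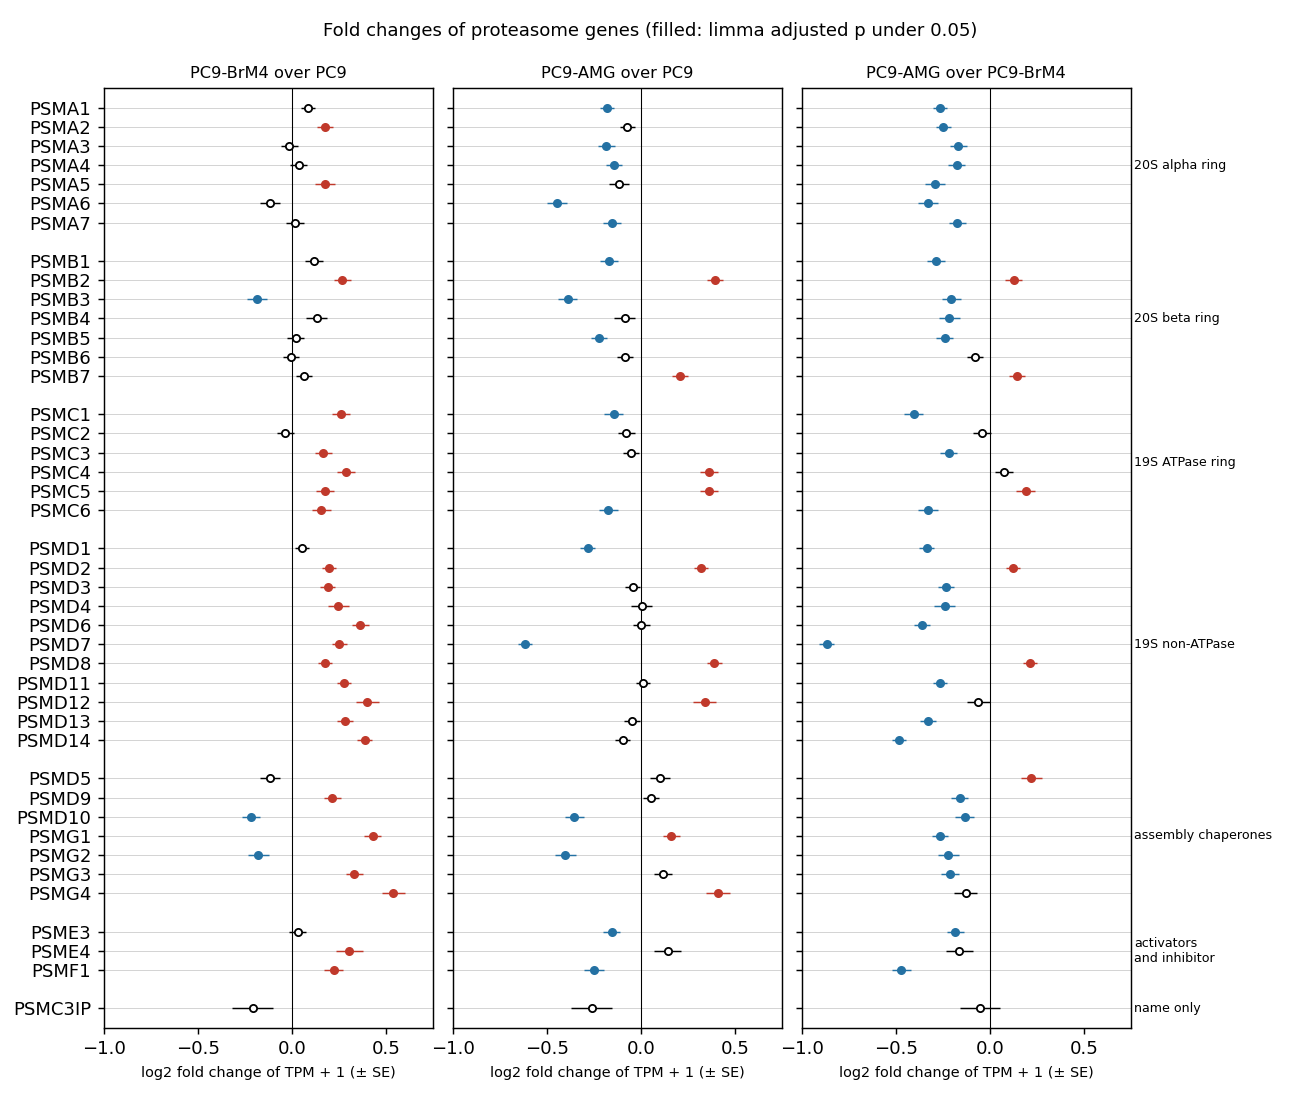
Log2 fold change of each gene (TPM + 1 scale, bars are ± SE of the limma fit) in the 3 comparisons, grouped by role. Filled points passed at an adjusted p under 0.05, red where higher and blue where lower; in PC9-BrM4 over PC9 the 17 regulatory particle genes hold 15 filled red points and 0 filled blue ones.

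Summed over genes, the regulatory particle stood at 5280 ± 41.2 TPM in PC9-BrM4 and 4870 ± 70.5 TPM in PC9-AMG, against 4544 ± 11.6 TPM in PC9 (SD, n = 2 each). The core stood at 6547 ± 273 TPM in PC9-BrM4 and 5912 ± 112 TPM in PC9-AMG, against 6325 ± 119 TPM in PC9. The ratio of the regulatory to the core sum was 0.788 and 0.826 in the PC9-BrM4 libraries and 0.826 and 0.821 in the PC9-AMG libraries, against 0.727 and 0.71 in PC9. So the ratio was higher in all 4 subline libraries than in both PC9 libraries, with a higher regulatory sum in PC9-BrM4, and a higher regulatory and a lower core sum in PC9-AMG. In PC9-AMG most of the difference in the regulatory sum came from PSMD2, with 231 of 326 TPM, and 9 of the 17 genes had a negative log2 fold change. Without PSMD2 the sum was 3654 and 3759 TPM in PC9-AMG, against 3607 and 3616 TPM in PC9. SEM1 and ADRM1 are not in the regulatory sum or the ratio. SEM1 had 376 and 355 TPM in PC9-BrM4 and 516 and 542 TPM in PC9-AMG, against 529 and 534 TPM in PC9. ADRM1 had 383 and 388 TPM in PC9-BrM4 and 352 and 359 TPM in PC9-AMG, against 279.7 and 288 TPM in PC9. All 42 genes together made up 1.31% and 1.27% of total TPM in the PC9-BrM4 libraries and 1.16% and 1.19% in those of PC9-AMG, against 1.18% and 1.20% in PC9.

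**Figure D3:**
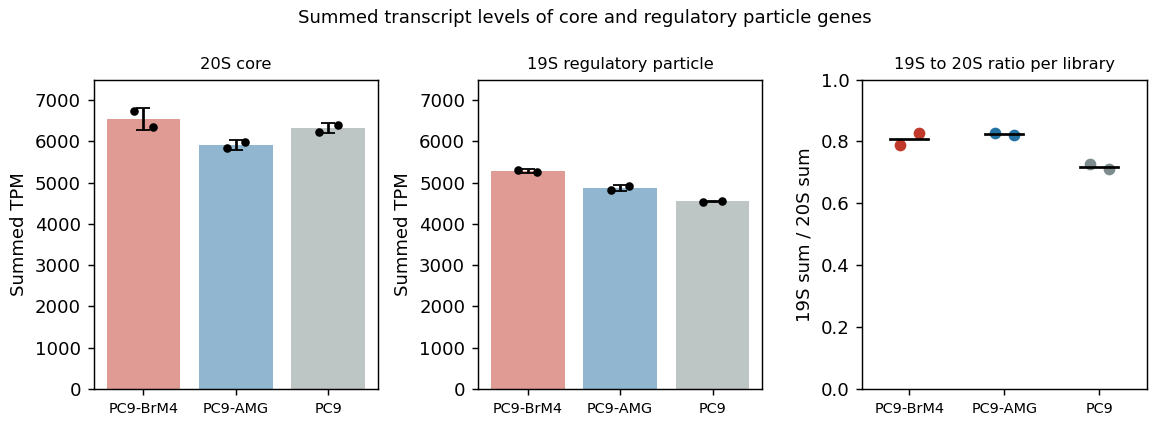
Summed TPM of the 14 core genes and of the 17 regulatory particle genes, and the ratio of the regulatory to the core sum; dots are libraries, bars and lines are means, error bars are SD (n = 2). The regulatory sum is 5280 TPM in PC9-BrM4 and 4870 TPM in PC9-AMG against 4544 TPM in PC9, and the ratio is above PC9 in both sublines. SEM1 and ADRM1 are not in the sum or the ratio.

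Of the alpha ring, PSMA2 and PSMA5 rose in PC9-BrM4 and 5 of 7 did not pass, whereas 0 of 7 rose and 5 fell in PC9-AMG. All 7 alpha genes fell in PC9-AMG against PC9-BrM4, with log2 fold changes between -0.33 and -0.17. Among all genes tested, 23.4% were higher in PC9-BrM4 and 27.7% lower in PC9-AMG, each over PC9. Between the sublines 28% were lower in PC9-AMG. At an unadjusted p under 0.05 there were also 0 alpha falls in PC9-BrM4 and 0 rises in PC9-AMG. The alpha subunit gene that moved most was PSMA6 (chr14:35278558-35317479), at 312 and 286 TPM in PC9-BrM4 and 233 and 242 TPM in PC9-AMG, against 329.9 and 319 TPM in PC9. Both PC9-AMG libraries lay below all 4 others, and the log2 fold change over PC9 was -0.45 ± 0.05 (limma adjusted p = 0.000321). PSMA2 read 536 and 507 TPM in PC9-BrM4 and 437 and 442 TPM in PC9-AMG, against 461 and 464 TPM in PC9, which separates PC9-BrM4 from PC9 (0.17 ± 0.04, limma adjusted p = 0.0107) but not past the threshold PC9-AMG from PC9 (-0.07 ± 0.04, limma adjusted p = 0.168). The PSMA2 call ended without either PC9 library (limma adjusted p = 0.068 without replicate 1 and 0.0578 without replicate 2). PSMA5 ended its rise without any of 3 libraries, with a limma adjusted p of 0.0812 to 0.147. The falls of PSMA3, PSMA4 and PSMA7 in PC9-AMG each ended without at least 1 library, with limma adjusted p of 0.057 to 0.172, while those of PSMA1 and PSMA6 held.

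The catalytic beta subunits did not move together. PSMB5, which carries the chymotrypsin-like site and is the main target of proteasome inhibitor drugs (chr14:23025851-23035220), had 270.1 and 259 TPM in PC9-BrM4 and 223 and 224 TPM in PC9-AMG, against 254 and 268 TPM in PC9. PC9-AMG was below both other lines, with -0.22 ± 0.04 (limma adjusted p = 0.00408) over PC9, and PC9-BrM4 overlapped PC9 (0.02 ± 0.04, limma adjusted p = 0.76). With the regional median removed, PSMB5 stood at -0.07 in PC9-AMG (limma adjusted p = 0.225) and at 0.19 in PC9-BrM4 (limma adjusted p = 0.0157), so the call moved to the other subline. PSMB6, the caspase-like subunit, had 713 and 671 TPM in PC9-BrM4 and 643 and 668 TPM in PC9-AMG, against 687 and 703 TPM in PC9. It passed in no comparison, with log2 fold changes of -0.0062 ± 0.04 (limma adjusted p = 0.92) in PC9-BrM4 and -0.09 ± 0.04 (limma adjusted p = 0.141) in PC9-AMG. PSMB7, the trypsin-like subunit (chr9:124353465-124415473), had 728 and 696 TPM in PC9-BrM4 and 772 and 801 TPM in PC9-AMG, against 671 and 691 TPM in PC9. It rose in PC9-AMG, by 0.21 ± 0.04 (limma adjusted p = 0.00458), and both PC9-AMG libraries lay above the other 4.

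Among the structural beta subunits, PSMB2 rose and PSMB3 fell in both sublines. PSMB2 (chr1:35599541-35641844) had 299.9 and 284 TPM in PC9-BrM4 and 315 and 322 TPM in PC9-AMG, against 238 and 246 TPM in PC9. Its libraries were ordered PC9-AMG above PC9-BrM4 above PC9 without overlap, with 0.39 ± 0.04 (limma adjusted p = 0.000268) in PC9-AMG and 0.27 ± 0.04 (limma adjusted p = 0.00214) in PC9-BrM4, each over PC9. PSMB3 (chr17:38752713-38764231) had 357 and 332 TPM in PC9-BrM4 and 288 and 310.0 TPM in PC9-AMG, against 390.0 and 394 TPM in PC9. All 4 subline libraries were below both PC9 libraries, with -0.39 ± 0.05 (limma adjusted p = 0.000642) in PC9-AMG and -0.19 ± 0.05 (limma adjusted p = 0.0227) in PC9-BrM4. The fall in PC9-BrM4 ended without either PC9 library or without PC9-BrM4 replicate 2 (limma adjusted p of 0.0821 to 0.115). PSMB1 fell in PC9-AMG (-0.17 ± 0.05, limma adjusted p = 0.0173), a call that ended without 3 of the libraries (limma adjusted p of 0.0627 to 0.143), and PSMB4 passed over PC9 in neither subline.

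The ATPase genes, which unfold substrates and open the core, rose in PC9-BrM4 for 5 of 6 and split 2 higher to 2 lower in PC9-AMG. The shares over all genes tested were 23.4% higher in PC9-BrM4, and 27.8% higher and 27.7% lower in PC9-AMG. PSMC4 (chr19:39971005-39981764) had 221 and 207 TPM in PC9-BrM4 and 220.2 and 231 TPM in PC9-AMG, against 176 and 174 TPM in PC9, so both sublines were above PC9, with 0.29 ± 0.05 (limma adjusted p = 0.00226) in PC9-BrM4 and 0.36 ± 0.05 (limma adjusted p = 0.000598) in PC9-AMG. PSMC5 (chr17:63827410-63832027) had 401 and 384 TPM in PC9-BrM4 and 433 and 463 TPM in PC9-AMG, against 340.5 and 355 TPM in PC9. It was highest in PC9-AMG (0.36 ± 0.05, limma adjusted p = 0.000624 over PC9), and its smaller rise in PC9-BrM4 (0.17 ± 0.05, limma adjusted p = 0.0218) ended without 3 of the libraries (limma adjusted p of 0.0504 to 0.138). PSMC1 (chr14:90256550-90272622) had 95.7 and 91.8 TPM in PC9-BrM4 and 70.3 and 70.8 TPM in PC9-AMG, against 80.4 and 75.9 TPM in PC9. PC9-BrM4 lay above PC9 (0.26 ± 0.05, limma adjusted p = 0.00413) and PC9-AMG below it (-0.15 ± 0.05, limma adjusted p = 0.0375).

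PSMC6, another ATPase of the ring (chr14:52707178-52727998), showed the same order as PSMC1, with 234 and 222 TPM in PC9-BrM4 and 181 and 182 TPM in PC9-AMG, against 213 and 197 TPM in PC9. The difference between the sublines was called for both, at -0.41 ± 0.05 (limma adjusted p = 0.000349) for PSMC1 and -0.33 ± 0.05 (limma adjusted p = 0.00109) for PSMC6 in PC9-AMG over PC9-BrM4. Over PC9, leaving out a library ended the fall of PSMC1 in 4 cases (limma adjusted p of 0.0587 to 0.243), the fall of PSMC6 in 3 (0.0709 to 0.164) and the rise of PSMC6 in 4 (0.0598 to 0.257). PSMC3 rose in PC9-BrM4 (0.17 ± 0.04, limma adjusted p = 0.0171), a call that also ended without 3 of the libraries (limma adjusted p of 0.0627 to 0.106). PSMC2 passed in no comparison.

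Of the 11 other subunits of the regulatory particle, 10 rose and 0 fell in PC9-BrM4, beside 23.4% higher and 23.1% lower over all genes tested. The exception was PSMD1, the large scaffold beside PSMD2. PSMD14, the metalloprotease that cuts ubiquitin chains off the substrate (chr2:161308275-161411717), had 294 and 286 TPM in PC9-BrM4 and 209 and 205 TPM in PC9-AMG, against 220.5 and 223 TPM in PC9. Both PC9-BrM4 libraries were above the other 4, with 0.39 ± 0.04 (limma adjusted p = 0.000238) over PC9, and PC9-AMG did not pass against PC9 (-0.10 ± 0.04, limma adjusted p = 0.067). PSMD7, its partner in the lid of the particle (chr16:74296775-74306288), had 301 and 296 TPM in PC9-BrM4 and 161 and 166 TPM in PC9-AMG, against 249 and 253 TPM in PC9. It rose in PC9-BrM4 (0.25 ± 0.04, limma adjusted p = 0.00168) and fell in PC9-AMG (-0.62 ± 0.04, limma adjusted p = 2.62e-05), the largest change of any of the 42 genes over PC9. Between the sublines PSMD7 differed by -0.87 ± 0.04 (limma adjusted p = 3.65e-06) in PC9-AMG over PC9-BrM4, a change of -45.4% in mean TPM. With the median of its chromosomal neighbours removed, a step described further on, the rise of PSMD7 in PC9-BrM4 did not pass (0.11, limma adjusted p = 0.159).

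The lid scaffold subunits PSMD12 and PSMD6 also rose in PC9-BrM4. PSMD12 (chr17:67340503-67366605) had 227 and 239.7 TPM in PC9-BrM4 and 236 and 211 TPM in PC9-AMG, against 176 and 176 TPM in PC9. It rose in PC9-BrM4 (0.40 ± 0.06, limma adjusted p = 0.00135) and in PC9-AMG (0.34 ± 0.06, limma adjusted p = 0.0023), where its 2 libraries lay further apart on the log2 scale than those of any other of the 42 genes (0.16). PSMD6 (chr3:64010549-64024010) had 189 and 193 TPM in PC9-BrM4 and 147 and 151 TPM in PC9-AMG, against 152 and 145 TPM in PC9. PC9-BrM4 stood alone (0.36 ± 0.04, limma adjusted p = 0.000525), and PC9-AMG overlapped PC9 (0.0024 ± 0.04, limma adjusted p = 0.969). PSMD11 (0.28 ± 0.04, limma adjusted p = 0.000958) and PSMD13 (0.28 ± 0.04, limma adjusted p = 0.00144) rose in PC9-BrM4 in the same way, and neither passed in PC9-AMG over PC9.

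Of the ubiquitin-binding subunits, PSMD4, an intrinsic ubiquitin receptor (chr1:151254721-151267478), had 398 and 372 TPM in PC9-BrM4 and 311 and 341 TPM in PC9-AMG, against 322 and 328 TPM in PC9. It rose in PC9-BrM4 (0.24 ± 0.06, limma adjusted p = 0.00961), a call that ended without PC9 replicate 1 or PC9-BrM4 replicate 1 (limma adjusted p of 0.0549 and 0.0577). PSMD2 (chr3:184299098-184309054) had 1052 and 1086 TPM in PC9-BrM4 and 1166 and 1160.2 TPM in PC9-AMG, against 929 and 936 TPM in PC9. All 3 lines were separate, with 0.32 ± 0.04 (limma adjusted p = 0.00033) in PC9-AMG and 0.20 ± 0.04 (limma adjusted p = 0.00398) in PC9-BrM4. PSMD8, a lid subunit (chr19:38374550-38383824), had 369 and 368 TPM in PC9-BrM4 and 420.1 and 434 TPM in PC9-AMG, against 323 and 328 TPM in PC9, in the same order, with 0.39 ± 0.04 (limma adjusted p = 0.000147) in PC9-AMG and 0.18 ± 0.04 (limma adjusted p = 0.0073) in PC9-BrM4. PSMD1 fell in PC9-AMG (-0.28 ± 0.04, limma adjusted p = 0.000681), and PSMD3 rose in PC9-BrM4 (0.19 ± 0.04, limma adjusted p = 0.00721), a call that ended without PC9 replicate 2 (limma adjusted p = 0.0614), as that of PSMD8 in PC9-BrM4 did without PC9 replicate 1 (0.0625).

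**Figure D4:**
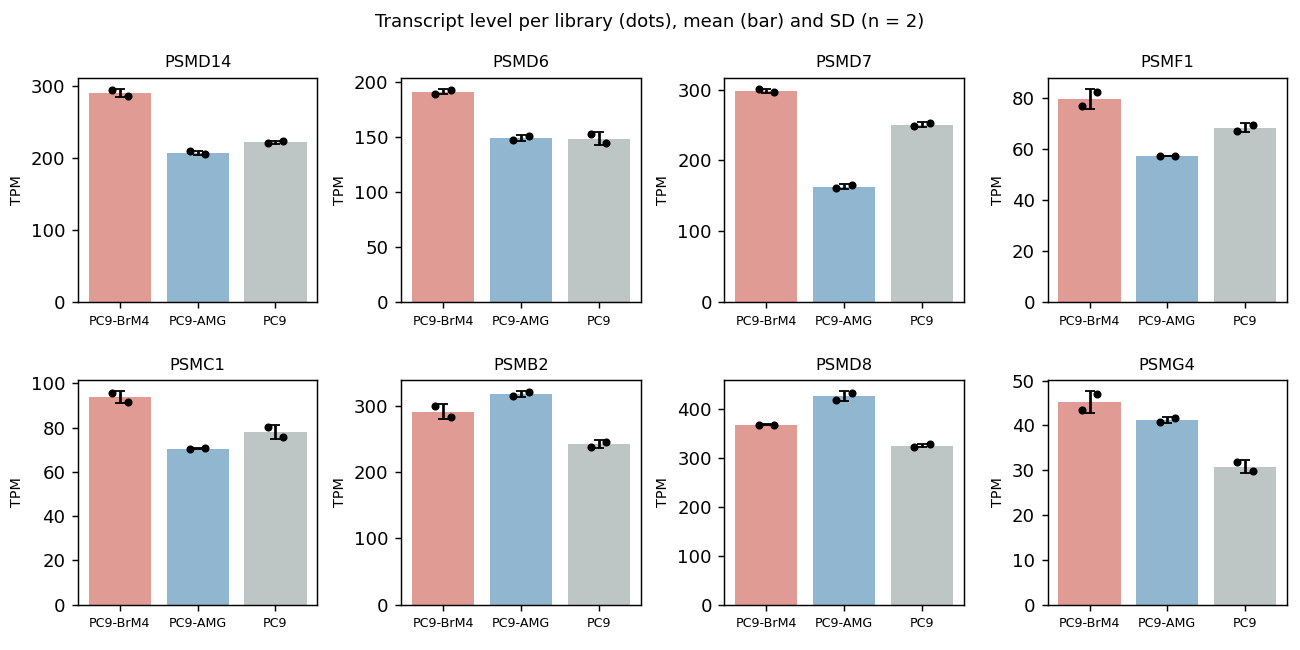
TPM per library (dots), mean (bar) and SD (n = 2) of 8 of the genes with the largest changes, on linear axes that start at 0. PSMD14, PSMD6, PSMD7, PSMF1 and PSMC1 are highest in PC9-BrM4, PSMB2 and PSMD8 are highest in PC9-AMG, and PSMG4 is lowest in PC9.

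Of the 7 assembly chaperones 4 rose and 2 fell in PC9-BrM4, and 2 rose and 2 fell in PC9-AMG. The counts in PC9-AMG, 28.6% each way, lie near the 27.8% higher and 27.7% lower among all genes tested. In PC9-BrM4 those shares were 23.4% and 23.1%. PSMG1 and PSMG2 form a pair that helps build the alpha ring, and their transcripts moved in opposite directions. PSMG1 (chr21:39175446-39183514) had 127 and 122 TPM in PC9-BrM4 and 104 and 103 TPM in PC9-AMG, against 92.7 and 92.2 TPM in PC9, and rose in PC9-BrM4 (0.43 ± 0.04, limma adjusted p = 0.000236) and less in PC9-AMG (0.16 ± 0.04, limma adjusted p = 0.0149). PSMG2 (chr18:12658739-12725741) had 157 and 147 TPM in PC9-BrM4 and 133 and 127 TPM in PC9-AMG, against 166 and 179 TPM in PC9, and fell in PC9-AMG (-0.40 ± 0.06, limma adjusted p = 0.000716) and in PC9-BrM4 (-0.18 ± 0.06, limma adjusted p = 0.0307). The call of PSMG1 in PC9-AMG ended without either PC9 library (limma adjusted p of 0.0759 and 0.0872), and that of PSMG2 in PC9-BrM4 without PC9 replicate 2 or PC9-BrM4 replicate 2 (0.197 and 0.146).

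PSMG3 and PSMG4 form the other pair of core chaperones. PSMG4 (chr6:3258928-3268066) had 43.5 and 46.95 TPM in PC9-BrM4 and 40.7 and 41.8 TPM in PC9-AMG, against 31.9 and 29.8 TPM in PC9, the largest rise over PC9 in both sublines, with 0.54 ± 0.06 (limma adjusted p = 0.000413) in PC9-BrM4 and 0.41 ± 0.06 (limma adjusted p = 0.00111) in PC9-AMG. PSMG3 (chr7:1567334-1570032) had 161 and 152 TPM in PC9-BrM4 and 132 and 138 TPM in PC9-AMG, against 124 and 124 TPM in PC9, and passed in PC9-BrM4 (0.33 ± 0.05, limma adjusted p = 0.00108) but not in PC9-AMG (0.12 ± 0.05, limma adjusted p = 0.0644). Both genes had PC9 libraries below all 4 subline libraries. The neighbours of PSMG3 had a median of 0.29 in PC9-BrM4, and with it removed PSMG3 stood at 0.03 there (limma adjusted p = 0.765).

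The chaperones of the ATPase ring differed from each other. PSMD10, also known as gankyrin (chrX:108084205-108091644), had 177 and 166 TPM in PC9-BrM4 and 159 and 153 TPM in PC9-AMG, against 196 and 203 TPM in PC9, and fell in PC9-AMG (-0.35 ± 0.05, limma adjusted p = 0.00072) and PC9-BrM4 (-0.22 ± 0.05, limma adjusted p = 0.00845). Its call in PC9-BrM4 ended without PC9 replicate 2 (limma adjusted p = 0.0661). PSMD9 rose in PC9-BrM4 (0.21 ± 0.05, limma adjusted p = 0.00658), a call that ended without PC9 replicate 1 (limma adjusted p = 0.0565). PSMD5 (chr9:120816054-120843021) had 70.9 and 69.03 TPM in PC9-BrM4 and 85.1 and 78.4 TPM in PC9-AMG, against 77.5 and 74.6 TPM in PC9, and passed over PC9 in neither subline, though PC9-AMG was above PC9-BrM4 (0.22 ± 0.05, limma adjusted p = 0.0105).

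Of the alternative activators, PSME4, a nuclear cap of the core (chr2:53864067-53970840), had 82.8 and 92.3 TPM in PC9-BrM4 and 82.6 and 73.7 TPM in PC9-AMG, against 71.6 and 69.7 TPM in PC9. It rose in PC9-BrM4 (0.30 ± 0.07, limma adjusted p = 0.0111), a call that ended without PC9 replicate 2 or PC9-BrM4 replicate 2 (limma adjusted p of 0.0594 and 0.0678). PSME3, a nuclear activator that works without ubiquitin (chr17:42833142-42843760), had 113 and 118 TPM in PC9-BrM4 and 103 and 99.9 TPM in PC9-AMG, against 111 and 115 TPM in PC9. It fell in PC9-AMG (-0.16 ± 0.05, limma adjusted p = 0.0216), which ended without 3 of the libraries (limma adjusted p of 0.0602 to 0.146). PSMF1, first described as an inhibitor of the core (chr20:1113263-1167782), had 76.8 and 82.3 TPM in PC9-BrM4 and 57.04 and 57.2 TPM in PC9-AMG, against 66.9 and 69.4 TPM in PC9, with PC9-BrM4 above PC9 (0.22 ± 0.05, limma adjusted p = 0.0107) and PC9-AMG below it (-0.25 ± 0.05, limma adjusted p = 0.00488). The rise of PSMF1 ended without PC9 replicate 1 (limma adjusted p = 0.0813).

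PC9-AMG against PC9 asks the same of the other subline, and here the family did not move as a whole. Of the 42 genes 9 rose (21.4%) and 16 fell (38.1%), against 27.8% higher and 27.7% lower (55.5% either way) among all genes tested, with a median log2 fold change of -0.08 against -0.0058 over all. The libraries did not overlap for 14 genes higher and 25 lower, where the share over all genes tested in either direction was 79.8%. Core genes split 2 higher to 8 lower of 14 (median -0.15), and regulatory particle genes 5 higher to 4 lower of 17 (median -0.04). With a library left out, 4 to 8 core genes fell, and the lowest count came without PC9 replicate 2.

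The direct comparison of PC9-AMG with PC9-BrM4 asks where the sublines differ from each other. Of 42 genes 6 rose (14.3%) and 29 fell (69.0%) in PC9-AMG, against 28.1% higher and 28% lower (56.1% either way) among all genes tested, and the median was -0.21 against -0.0059. Libraries did not overlap for 6 genes higher and 32 lower, where the share over all genes tested was 77.5%. Falls covered 11 of 14 core genes and 11 of 17 regulatory particle genes. The 5 largest falls were those of PSMD7, PSMD14 (-0.48 ± 0.04, limma adjusted p = 4.77e-05), PSMF1 (-0.47 ± 0.05, limma adjusted p = 0.000215), PSMC1 and PSMD6 (-0.36 ± 0.04, limma adjusted p = 0.000363). The rises were PSMD5, PSMD8 (0.21 ± 0.04, limma adjusted p = 0.00227), PSMC5 (0.19 ± 0.05, limma adjusted p = 0.0122), PSMB7 (0.14 ± 0.04, limma adjusted p = 0.0217), PSMB2 (0.13 ± 0.04, limma adjusted p = 0.0407) and PSMD2 (0.12 ± 0.04, limma adjusted p = 0.0251), and each of these except PSMD8 lost its call without at least 1 library (limma adjusted p up to 0.162). With a library left out, 6 to 11 core genes fell, with 6 without PC9-AMG replicate 1 and without PC9-BrM4 replicate 1.

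The 2 comparisons over PC9 share the PC9 libraries, so the calls are set side by side. There were 8 genes that rose in both sublines, 12 that rose in PC9-BrM4 alone, 4 that rose in PC9-BrM4 and fell in PC9-AMG, 3 that fell in both, 9 that fell in PC9-AMG alone, 1 that rose in PC9-AMG alone and 5 that passed in neither. The 8 were PSMB2, PSMC4, PSMC5, PSMD2, PSMD8, PSMD12, PSMG1 and PSMG4. The 4 with opposite calls were PSMC1, PSMC6, PSMD7 and PSMF1, and the 3 that fell in both were PSMB3, PSMD10 and PSMG2. PSMB7 rose in PC9-AMG alone. The share of all genes tested that fell into each of these joint classes was not counted. Taken singly, 23.4% were higher and 23.1% lower in PC9-BrM4, and 27.8% higher and 27.7% lower in PC9-AMG.

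In PC9-AMG over PC9 most genes that passed had changes of the same sign as the median of their chromosomal neighbours. For each gene the median log2 fold change was taken over the other tested genes within 5 Mb on either side, 14 to 211 of them, with the 42 genes left out. Across the 42 genes, which share libraries and in part neighbours and are not independent, Pearson's r between a gene and its neighbours was 0.816 in PC9-AMG over PC9 (Spearman's rho 0.771) and 0.548 in PC9-BrM4 over PC9 (rho 0.481), as a description. In PC9-AMG over PC9-BrM4 it was 0.845 (rho 0.718). Of the 9 genes that rose in PC9-AMG over PC9, 8 lay among neighbours with a median above 0.1. Of the 16 that fell, 12 lay among neighbours with a median below -0.1 and 14 among neighbours with a median below 0. The same was not counted for genes outside the 42. The exception among the rises was PSMG4, with a neighbour median of -0.05. Those among the falls were PSMA1 and PSMA7, with 0.01 and 0.03. Some genes that did not pass also had the opposite sign to their neighbours, such as PSMA2, PSMC2 and PSME4.

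Several of these genes share a chromosome. Their counts stand beside 27.8% higher and 27.7% lower among all genes tested in PC9-AMG over PC9. On chromosome 14, PSMA3, PSMA6, PSMB5, PSMC1 and PSMC6 all fell in PC9-AMG (5 of 5). They are spread along most of its length, and their neighbour medians lay between -0.26 and -0.05. The windows of PSMC6 and PSMA3 overlap. On chromosome 19, PSMD8 and PSMC4 rose, with neighbour medians of 0.28 and 0.34, and their windows overlap. On the long arm of chromosome 17, PSMC5 and PSMD12 rose, with 0.30 and 0.35, and their windows overlap too. Chromosome 17 holds 8 of the genes, of which 2 rose, 2 fell and 4 did not pass, near the shares over all genes tested. The falls were those of PSMB3 and PSME3, with neighbour medians of -0.17 and -0.15, and their windows overlap. PSMD3 and PSMC3IP lie between them, with neighbour medians of -0.16 and -0.15, and did not pass. Of the 57 neighbours of PSMD12, 53 were not lower. PSMB2 had a neighbour median of 0.35. Around PSMD7, 51 of 60 neighbours were lower in PC9-AMG (median -0.36).

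With the regional median taken off each gene's values, 1 of the 9 rises in PC9-AMG over PC9 was kept, that of PSMG4, and 8 of the 16 falls. PSMD3, PSMD6 and PSME4 were newly called higher and PSMA2 and PSMC2 newly called lower, which gave 4 rises and 10 falls. The share of all genes tested called after this step was not counted in any comparison. These counts therefore cannot be set against all genes. PSMB2 then stood at 0.02 (limma adjusted p = 0.753), PSMC4 at 0.02 (0.758), PSMC5 at 0.05 (0.593), PSMD12 at 0.0015 (0.982) and PSMD8 at 0.09 (0.149). PSMD7 stayed lower, at -0.24 (limma adjusted p = 0.0125), and PSMG4 higher, at 0.46 (0.000906). PSMF1 stood at -0.01 (0.808) and PSMA6 at -0.21 (0.0317). In PC9-BrM4 over PC9 the same step kept 18 of 24 rises and 0 of 3 falls. The rises of PSMA2, PSMA5, PSMB2, PSMC3, PSMD7 and PSMG3 ended, and PSMB5, PSMC2 and PSME3 were newly called higher, for 21 rises. Of the 15 rises of the regulatory particle 13 were kept and 1 was new, whereas 0 of the 3 rises of the core were kept. In PC9-AMG over PC9-BrM4 it kept 1 of 6 rises, that of PSMD5, and 24 of 29 falls, and 4 further genes were called lower. Copy number was not measured in these libraries, and its part in these values was not tested.

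**Figure D5:**
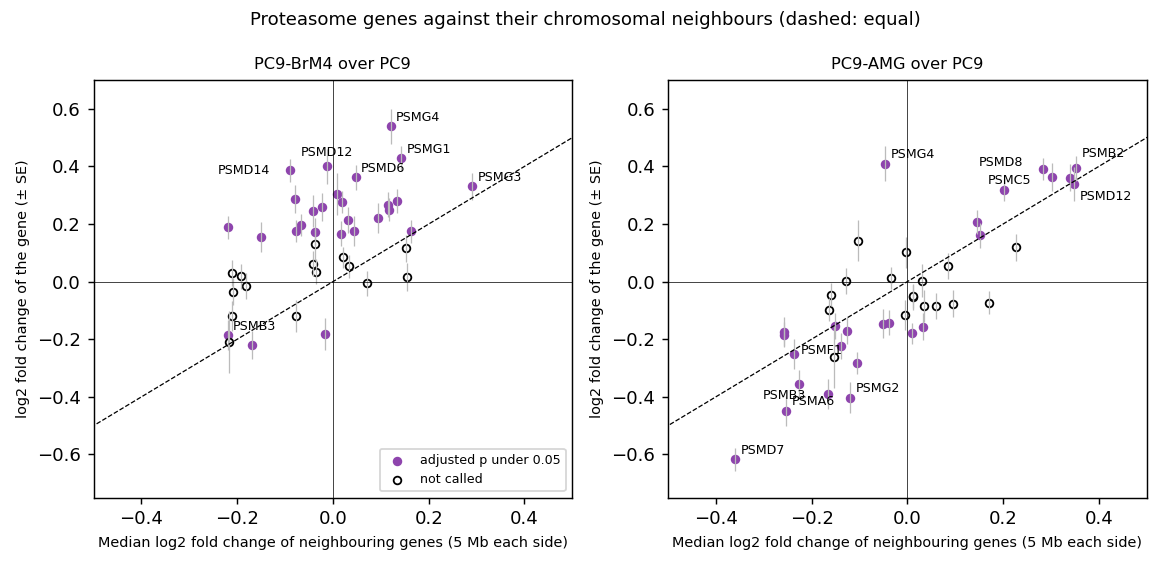
Log2 fold change of each of the 42 genes (vertical, ± SE) against the median log2 fold change of the other tested genes within 5 Mb (horizontal), for PC9-BrM4 over PC9 and PC9-AMG over PC9; filled points passed at an adjusted p under 0.05, and the dashed line marks equal values. In PC9-AMG the points follow the line (Pearson's r 0.816 over 42 genes), while in PC9-BrM4 most filled points lie above it (r 0.548).

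Proteasome genes outside the PSM symbols moved partly with the family. ADRM1, an intrinsic ubiquitin receptor of the regulatory particle, had 383 and 388 TPM in PC9-BrM4 and 352 and 359 TPM in PC9-AMG, against 279.7 and 288 TPM in PC9, and rose in PC9-BrM4 (0.44 ± 0.04, limma adjusted p = 0.000123) and PC9-AMG (0.32 ± 0.04, limma adjusted p = 0.000361). UCHL5, the deubiquitylase that ADRM1 recruits, had 68.9 and 69.4 TPM in PC9-BrM4 and 46.5 and 49.4 TPM in PC9-AMG, against 50.8 and 49.1 TPM in PC9, and rose in PC9-BrM4 alone past the threshold (0.46 ± 0.05, limma adjusted p = 0.00036). USP14, the other bound deubiquitylase, had 134 and 136 TPM in PC9-BrM4 and 119 and 111 TPM in PC9-AMG, against 144 and 135 TPM in PC9, and fell in PC9-AMG (-0.28 ± 0.05, limma adjusted p = 0.0028). PAAF1, a chaperone of the ATPase ring, had 46.8 and 47.7 TPM in PC9-BrM4 and 34.7 and 34.6 TPM in PC9-AMG, against 40.8 and 40.8 TPM in PC9, and rose in PC9-BrM4 (0.21 ± 0.05, limma adjusted p = 0.0106) and fell in PC9-AMG (-0.23 ± 0.05, limma adjusted p = 0.0055).

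POMP, which guides the beta subunits into the core, went against most regulatory particle genes in PC9-BrM4. It had 152 and 155 TPM in PC9-BrM4 and 138 and 129 TPM in PC9-AMG, against 179 and 180.0 TPM in PC9, and fell in PC9-AMG (-0.43 ± 0.05, limma adjusted p = 0.000222) and PC9-BrM4 (-0.22 ± 0.05, limma adjusted p = 0.00588). SEM1, the smallest lid subunit, listed as SHFM1, fell in PC9-BrM4 (-0.54 ± 0.05, limma adjusted p = 0.000102), whereas 0 of the 17 regulatory particle genes above fell there. Of 11 tested genes of this list, to be read against 23.4% higher and 23.1% lower over all genes in PC9-BrM4 and 27.8% higher and 27.7% lower in PC9-AMG, 5 rose and 3 fell in PC9-BrM4, and 2 rose and 3 fell in PC9-AMG.

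The inducible genes, left out by the rule above, did not move as a group. PSMB9 had 20.02 and 17.6 TPM in PC9-BrM4 and 17.9 and 22.6 TPM in PC9-AMG, against 11.1 and 12.02 TPM in PC9, and rose in PC9-BrM4 (0.66 ± 0.12, limma adjusted p = 0.00299) and PC9-AMG (0.75 ± 0.12, limma adjusted p = 0.00122). PSMB10 had 47.5 and 45.7 TPM in PC9-BrM4 and 32.04 and 34.6 TPM in PC9-AMG, against 40.1 and 39.1 TPM in PC9, and rose in PC9-BrM4 (0.23 ± 0.06, limma adjusted p = 0.0152) and fell in PC9-AMG (-0.24 ± 0.06, limma adjusted p = 0.00964). PSMB8 had 84.9 and 73.8 TPM in PC9-BrM4 and 83.7 and 88.8 TPM in PC9-AMG, against 70.8 and 74.4 TPM in PC9, and rose in PC9-AMG (0.24 ± 0.07, limma adjusted p = 0.0224). The PA28 genes PSME1 and PSME2 had log2 fold changes of -0.28 ± 0.06 (limma adjusted p = 0.00855) and -0.10 ± 0.05 (limma adjusted p = 0.123) in PC9-BrM4, and of 0.0071 ± 0.06 (limma adjusted p = 0.932) and 0.13 ± 0.05 (limma adjusted p = 0.0462) in PC9-AMG. Of the 5 genes 2 rose and 1 fell in PC9-BrM4, and 3 rose and 1 fell in PC9-AMG, beside the same shares over all genes.

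The NFE2L1 transcript itself did not pass over PC9 in either subline, and the activity of its protein was not measured. NFE2L1 had 66.5 and 74.5 TPM in PC9-BrM4 and 82.8 and 78.00 TPM in PC9-AMG, against 75.3 and 75.1 TPM in PC9, with -0.09 ± 0.06 (limma adjusted p = 0.265) in PC9-BrM4 and 0.10 ± 0.06 (limma adjusted p = 0.236) in PC9-AMG. NFE2L2, its relative in the antioxidant response, had 159.7 and 159 TPM in PC9-BrM4 and 184 and 168 TPM in PC9-AMG, against 172 and 174 TPM in PC9, with -0.12 ± 0.05 (limma adjusted p = 0.0959) and 0.02 ± 0.05 (limma adjusted p = 0.741) in the same order. Of 9 genes for NFE2L1, NFE2L2, the enzymes that process NFE2L1 and the small MAF partners, 3 rose and 0 fell in PC9-BrM4, and 5 rose and 0 fell in PC9-AMG. NGLY1 and MAFK rose in both sublines, VCP in PC9-BrM4, and SYVN1, MAFF and MAFG in PC9-AMG. MAFK, one of the small MAF partners, had 28.8 and 33.4 TPM in PC9-BrM4 and 67.5 and 56.8 TPM in PC9-AMG, against 24.9 and 25.01 TPM in PC9 (1.28 ± 0.10, limma adjusted p = 4.91e-05 in PC9-AMG over PC9). Of 6 ubiquitin and ubiquitin-activating enzyme genes, 0 rose and 1 fell in PC9-BrM4, and 0 rose and 3 fell in PC9-AMG. Each 0 in these lists was also 0 at an unadjusted p under 0.05 in limma. Of 10 tested shuttle factors and cofactors of the segregase VCP, 4 rose and 2 fell in PC9-BrM4, and 5 rose and 2 fell in PC9-AMG. Over all genes tested 23.4% were higher and 23.1% lower in PC9-BrM4, and 27.8% were higher and 27.7% lower in PC9-AMG.

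The promoters of the 5 genes with the largest rises in PC9-BrM4 and of PSMD7 are shown because these members moved together or apart most. They come from RefSeq (GRCh38.p14), on the coding strand, 250 bases before to 50 bases after the annotated start, and are written 5′ to 3′. Capitals mark matches on either strand to 5 motifs: the antioxidant response element core TGACNNNGC, which NFE2L1 and its relatives bind, the CCAAT box CCAAT, the ETS core CCGGAAG, the nuclear respiratory factor 1 site (this factor is not the NFE2L1 protein) and the TATA box TATAAA. PSMD14 is at chr2:161308175-161308474 (plus strand), PSMD12 at chr17:67366528-67366827 (minus strand), PSMD6 at chr3:64023445-64023744 (minus strand), PSMG1 at chr21:39183402-39183701 (minus strand), PSMG4 at chr6:3258697-3258996 (plus strand) and PSMD7 at chr16:74296564-74296863 (plus strand).
PSMD14: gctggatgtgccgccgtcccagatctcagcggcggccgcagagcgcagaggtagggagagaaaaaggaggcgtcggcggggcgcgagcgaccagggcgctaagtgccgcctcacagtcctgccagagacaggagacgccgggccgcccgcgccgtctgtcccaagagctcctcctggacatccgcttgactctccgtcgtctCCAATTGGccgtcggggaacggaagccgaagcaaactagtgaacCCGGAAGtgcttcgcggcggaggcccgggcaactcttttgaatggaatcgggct
PSMD12: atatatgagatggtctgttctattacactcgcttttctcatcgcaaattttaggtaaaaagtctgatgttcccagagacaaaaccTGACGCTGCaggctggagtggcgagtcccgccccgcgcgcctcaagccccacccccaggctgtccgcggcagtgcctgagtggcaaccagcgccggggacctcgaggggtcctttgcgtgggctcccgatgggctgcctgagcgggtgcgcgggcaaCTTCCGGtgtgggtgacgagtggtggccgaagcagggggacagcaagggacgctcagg
PSMD6: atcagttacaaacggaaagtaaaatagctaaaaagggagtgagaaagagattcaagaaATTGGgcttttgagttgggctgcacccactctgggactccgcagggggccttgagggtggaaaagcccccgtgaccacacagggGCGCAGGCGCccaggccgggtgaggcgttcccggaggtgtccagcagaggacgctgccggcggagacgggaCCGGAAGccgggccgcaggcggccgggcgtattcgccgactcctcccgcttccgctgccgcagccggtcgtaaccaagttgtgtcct
PSMG1: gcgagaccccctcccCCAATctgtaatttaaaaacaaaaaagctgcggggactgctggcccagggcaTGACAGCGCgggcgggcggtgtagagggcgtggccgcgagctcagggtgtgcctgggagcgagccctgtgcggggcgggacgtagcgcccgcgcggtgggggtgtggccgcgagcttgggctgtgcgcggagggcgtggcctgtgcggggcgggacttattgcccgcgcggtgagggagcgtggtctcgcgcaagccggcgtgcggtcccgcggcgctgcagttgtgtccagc
PSMG4: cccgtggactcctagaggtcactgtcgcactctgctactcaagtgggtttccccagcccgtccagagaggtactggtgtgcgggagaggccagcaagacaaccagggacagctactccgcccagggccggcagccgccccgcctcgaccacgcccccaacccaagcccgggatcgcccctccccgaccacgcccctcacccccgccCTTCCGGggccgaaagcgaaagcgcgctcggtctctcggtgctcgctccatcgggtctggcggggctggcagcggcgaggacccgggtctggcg
PSMD7: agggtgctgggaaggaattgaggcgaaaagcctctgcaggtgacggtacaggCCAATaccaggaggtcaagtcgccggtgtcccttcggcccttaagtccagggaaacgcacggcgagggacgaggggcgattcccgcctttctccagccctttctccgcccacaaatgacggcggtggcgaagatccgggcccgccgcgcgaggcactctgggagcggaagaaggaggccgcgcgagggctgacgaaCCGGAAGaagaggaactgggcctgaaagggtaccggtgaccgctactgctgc

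Counting the annotated start base as 0, the ETS core lies at -4 to 2 in PSMD14, -8 to -2 in PSMD12, -37 to -31 in PSMD6, -44 to -38 in PSMG4 and -2 to 4 in PSMD7, and is not in this window of PSMG1. The antioxidant response element core lies at -165 to -157 in PSMD12 and -183 to -175 in PSMG1. The 2 CCAAT boxes of PSMD14 share bases. The start in RefSeq lies within 200 bases of the deposited gene start for 31 of the 36 genes with a promoter. It lies 516 bases away for PSMD6, so its window may not be the one used in these cells.

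Over the 36 of 42 genes with a promoter in the table, the ETS core was in 13 (36.1%), against 10.7% of 27305 promoters of the same length. Those promoters were not limited to genes tested in these libraries, so the sets compared are unlike. The CCAAT box was in 18 (50%, against 35.7%), the antioxidant response element core in 10 (27.8%, against 13.6%), the nuclear respiratory factor 1 site in 5 (13.9%, against 6.29%) and the TATA box in 4 (11.1%, against 11.95%). Of the 13 genes with an ETS core, 11 rose and 0 fell in PC9-BrM4, and 3 rose and 3 fell in PC9-AMG. In PC9-BrM4 57.1% of all 42 genes rose, a share that includes the 6 without a promoter. The 13 held PSMC3IP and no core gene, and most were regulatory particle genes, of which 15 of 17 rose in PC9-BrM4. Motif and role therefore cannot be told apart here. The rises in PC9-BrM4 were 6 of 10 genes with the antioxidant response element core, 11 of 18 with the CCAAT box, 2 of 5 with the nuclear respiratory factor 1 site and 3 of 4 with the TATA box. No difference between these shares was tested. A match is a run of letters and was not tested as a binding site, and promoters were not in the table for PSMA7, PSMB1, PSMB6, PSMB7, PSMD4 and PSMG3.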

How the data were processed

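RNA from PC9-BrM4, PC9-AMG and PC9 cells was extracted with TRIzol and made into stranded, poly(A)-selected libraries, per the labels' protocols. Tools listed, without their roles, in the submitters' processing notes are HISAT2 2.1.0, StringTie 1.3.4d and bcl2fastq, with the build hg38. The labels state no annotation release, options or use of strand. The authors deposited a gene table per library with TPM, FPKM and coverage columns, per the file headers. TPM was analysed as deposited. The deposited FPKM and coverage served only to estimate depth, from the ratio shared by 60.9 to 61.2% of lines. The 6 columns of a table of all samples were not used.

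Genes at 1 TPM or more in at least 2 libraries were tested on log2(TPM + 1), which understates changes of low genes, with limma 3.58.1 in R 4.3.3. The fit had 1 mean per line, a mean-variance trend and 3 residual degrees of freedom, with Benjamini-Hochberg adjustment over 14195 genes. The procedure was tested on simulated data. Other steps used Python 3.11.15, pandas 2.3.3 and numpy 2.4.6. The members, the gene lists and the tests were chosen with earlier results of these data known. Genes given with every library's value were the 5 largest called rises and falls without overlap in each comparison, the catalytic subunits, the core chaperones, the activators and inhibitor, PSMD2, PSMD4 and PSMD14, and related genes outside the family; PSMA2, PSMC6 and MAFK were added after their values were seen. Alternatives covered the pseudocount, the low-value filter, median-of-ratios scaling, the variance trend, the libraries fitted, each library left out, the replicate number as a block and removal of the regional median.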

Additional observations from a re-analysis of the deposited data

Results flagged for a closer look

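Of the 42 genes, 4 were called in opposite directions in the sublines, higher in PC9-BrM4 and lower in PC9-AMG, each over the same PC9 libraries. How often this happened among all genes tested was not counted. The difference itself was tested by the limma contrast of PC9-AMG over PC9-BrM4. PSMD7 differed by -0.87 (limma adjusted p = 3.65e-06), PSMF1 by -0.47 (limma adjusted p = 0.000215), PSMC1 by -0.41 (limma adjusted p = 0.000349) and PSMC6 by -0.33 (limma adjusted p = 0.00109), on the log2(TPM + 1) scale. For each of them both PC9-AMG libraries lay below both PC9-BrM4 libraries. The 2 calls over PC9 held in all 6 fits with a library left out for PSMD7, but not for PSMC1, PSMC6 or PSMF1. Among the neighbours of PSMD7 within 5 Mb, 58 of 60 were lower in PC9-AMG than in PC9-BrM4 (median -0.51), and PSMD7 with the regional median removed stood at -0.36 (limma adjusted p = 0.00238). With the regional median removed, each of the 4 lost 1 of its opposite calls: the rise of PSMD7 in PC9-BrM4 (0.11, limma adjusted p = 0.159) and the falls in PC9-AMG of PSMC1 (-0.01, 0.887), PSMC6 (0.06, 0.48) and PSMF1 (-0.01, 0.808). The direct differences still passed, at -0.33 for PSMC1 (limma adjusted p = 0.00304), -0.20 for PSMC6 (0.0304) and -0.16 for PSMF1 (0.0247).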

How the results depend on the processing

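Of the calls of single genes, 10 of 27 in PC9-BrM4 over PC9, 8 of 25 in PC9-AMG over PC9 and 17 of 35 in PC9-AMG over PC9-BrM4 held under every alternative run. A pseudocount of 0.1 and a filter of 5 TPM ended no call of the 42 genes; the pseudocount gave 15 in place of 16 higher calls in the pathway lists of PC9-AMG over PC9-BrM4. With the regional median removed, 10 called values changed sign: PSMA2 -0.013 and PSMB3 0.0213 in PC9-BrM4 over PC9; PSMA3 0.0264, PSMC6 0.0567 and PSME3 0.0214 in PC9-AMG over PC9; PSMB2 -0.15, PSMB7 -0.0532, PSMC5 -0.18, PSMD2 -0.12 and PSMD8 -0.16 in PC9-AMG over PC9-BrM4. Of these, PSMD8 alone passed after the change of sign (limma adjusted p = 0.0248). The counts of calls were then 0 lower in PC9-BrM4 over PC9, 4 higher (1 of them among the 9 called before) and 10 lower (8 among the 16) in PC9-AMG over PC9, 1 higher in PC9-AMG over PC9-BrM4, and 5 lower in the pathway lists of PC9-AMG over PC9 (9 before). The 3 lower calls in PC9-BrM4 over PC9 became 1 with no filter, 1 with median-of-ratios scaling and 1 without the variance trend. Without the trend there were 10 lower calls in PC9-AMG over PC9 (16 before) and 3 higher calls in PC9-AMG over PC9-BrM4 (6 before), and median-of-ratios scaling also gave 3 there. That scaling also moved the summed level of the ATPase ring in PC9 to 1405 TPM, of the regulatory particle in PC9 to 4523 TPM and of its other subunits in PC9-BrM4 to 3694 TPM. The cause was not tested for any of these. The share of all genes tested called under each alternative was not counted.

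With each library left out, PC9-BrM4 over PC9 had 16 to 24 higher and 0 to 5 lower calls (0 without PC9 replicate 2, 5 without PC9-BrM4 replicate 1), PC9-AMG over PC9 10 to 17 lower (10 without PC9 replicate 2), and PC9-AMG over PC9-BrM4 2 to 5 higher (2 without PC9-AMG replicate 2) and 22 to 28 lower. The pathway lists in PC9-BrM4 over PC9 had 9 to 13 higher calls (main 14; 9 without either PC9 library) and 4 to 8 lower (main 7; 4 without either PC9 library or PC9-BrM4 replicate 2). Libraries that share a replicate number did not deviate together (correlations -0.07, -0.03 and -0.06). The labels do not say whether they were handled together, and these correlations cannot decide it. With the replicate number as a block, counts higher and lower were 24 and 2 in PC9-BrM4 over PC9, 9 and 16 in PC9-AMG over PC9 and 4 and 28 in PC9-AMG over PC9-BrM4, and 11 and 6, 13 and 8, and 14 and 13 for the pathway lists. The block ended the calls of PSMG2 in PC9-BrM4 over PC9 (limma adjusted p = 0.0507) and of PSMB2 (0.0657), PSMD10 (0.0621) and PSMD2 (0.05) in PC9-AMG over PC9-BrM4. Only 2 libraries a line and an estimated depth of 2.66 to 4.39 aligned gigabases limit the precision.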
